A study of Homo sapiens with 9 samples.

Results

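The genes described here come from families named for enzymes that write and erase histone methylation and for the classical histone deacetylases. Not every product acts on histones, and other histone enzymes fall outside the selection. The genes were chosen by a rule on names that uses no values, but that was set with earlier results of these data known. It took protein coding genes named KMT, KDM, SETD or HDAC with their family numbers and letters. Added to these were EZH1, EZH2, NSD1, NSD2, NSD3, DOT1L, EHMT1, EHMT2 and ASH1L. The rule found 56 genes among the 51111 genes of one deposited table and the 51268 of the other. RNA immunoprecipitation (RIP) with antibodies against PABPN, the poly(A) binding protein of the nucleus, or PABPC, that of the cytoplasm, was read out by sequencing total RNA. The 9 libraries were 3 input, 3 PABPN RIP and 3 PABPC RIP libraries, all from wildtype HEK293T cells, an established human embryonic kidney line, and all fixed for 10 min in 0.1% formaldehyde. Both antibodies and the input of a biological replicate shared 1 lysate. Every fold change below is RIP over input on the log2 scale with its standard error (SE), from the authors' DESeq2 fit.

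Poly(A) binding proteins coat the tail that is added to the 3′ end of most mRNAs. PABPN loads onto the tail in the nucleus and takes part in its synthesis, and PABPC replaces it and dominates in the cytoplasm, where it is linked to translation and mRNA decay. Histone methyltransferases add methyl groups to lysines of histones H3 and H4, mostly through a SET domain. Demethylases remove them by either an amine oxidase or a JmjC domain, and zinc-dependent histone deacetylases (HDACs) remove acetyl groups. Many of these proteins act in the nucleus as subunits of larger complexes, while others, such as HDAC6, act in the cytoplasm. Their mRNAs pass through synthesis, splicing, export and translation as mRNAs in general do, and differences between genes in these steps were not measured.

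Of the 56 genes, 53 had a mean normalised read count (baseMean) above 50 in both tables and could be called. The other 3, KDM4E, KDM4F and KDM5D, had next to no reads and were not called. The depth estimated from the tables was 36.5 to 52.2 M reads per library. Markers of the HEK293T line (LIN28B, PAX2, VIM, INA and NEFM) were all present in input, at mean counts of 259 to 66434. Of the markers of blood, liver and muscle, PTPRC, CD3E, HBB, ALB, APOA1 and MYH7 had a baseMean of at most 8.64 in the PABPN table, and ACTA1 had 87.1. The tables give each gene's mean and SE over libraries. The spread between replicates is therefore known from the SE alone, and whether single libraries overlap was not analysed here. The lysates were bulk samples, in which a change in a few cells and a smaller change in all cells cannot be told apart.

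A gene was called enriched at a log2 fold change above 0.5 and depleted below -0.5, with an adjusted p from DESeq2 of at most 0.01. In the PABPN RIP, 9 of the 53 genes were enriched (17.0%) and 3 were depleted (5.66%). Among all genes tested 17.5% were enriched and 14.6% depleted, and among protein coding genes 15.1% and 16.5%. In the PABPC RIP, 12 of the 53 were enriched (22.6%) and 17 were depleted (32.1%), where all genes gave 38.4% and 32.4% and protein coding genes 41.2% and 27.9%. The share enriched with PABPN was thus close to the background, and the shares depleted with PABPN and enriched with PABPC were lower than it, with no test made of these differences. The median log2 fold change of the 53 genes was 0.029 with PABPN and -0.16 with PABPC, beside -0.058 and 0.11 over the genes tested in both tables.

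The fold changes of the 53 genes spread more widely in the PABPC RIP (SD over genes 1.07, range -3.86 to 1.34) than in the PABPN RIP (SD 0.51, range -0.97 to 1.61), as did those of protein coding genes at large (SD 1.28 and 0.64). Both RIPs were compared directly by the difference of their log2 fold changes, with a two-sided normal test adjusted over 14581 genes. By this test 22 of the 53 genes were higher with PABPN (41.5%) and 11 were higher with PABPC (20.8%). Over all genes these shares were 36.1% and 33.4%, and over protein coding genes 30.6% and 37.8%. Because both comparisons use the same input libraries, their calls are given side by side and not as independent evidence. SETD6, HDAC6 and KMT5C were enriched in both RIPs, HDAC6 without a PABPC call once values were centred on the median of all genes (0.47) or of protein coding genes (0.36). EZH1, HDAC7 and NSD2 were enriched with PABPN and not called with PABPC. HDAC4, HDAC10 and KDM4B were enriched with PABPN and depleted with PABPC. HDAC2, KDM1A and KDM4A were depleted with PABPN and not called with PABPC, 9 genes were enriched and 14 depleted with PABPC alone, and 18 were called in neither. No gene was depleted in both, and none was depleted with PABPN and enriched with PABPC. The shares of such joint calls over all genes were not computed, so these counts are not read as traits of the set.

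**Figure D1:**
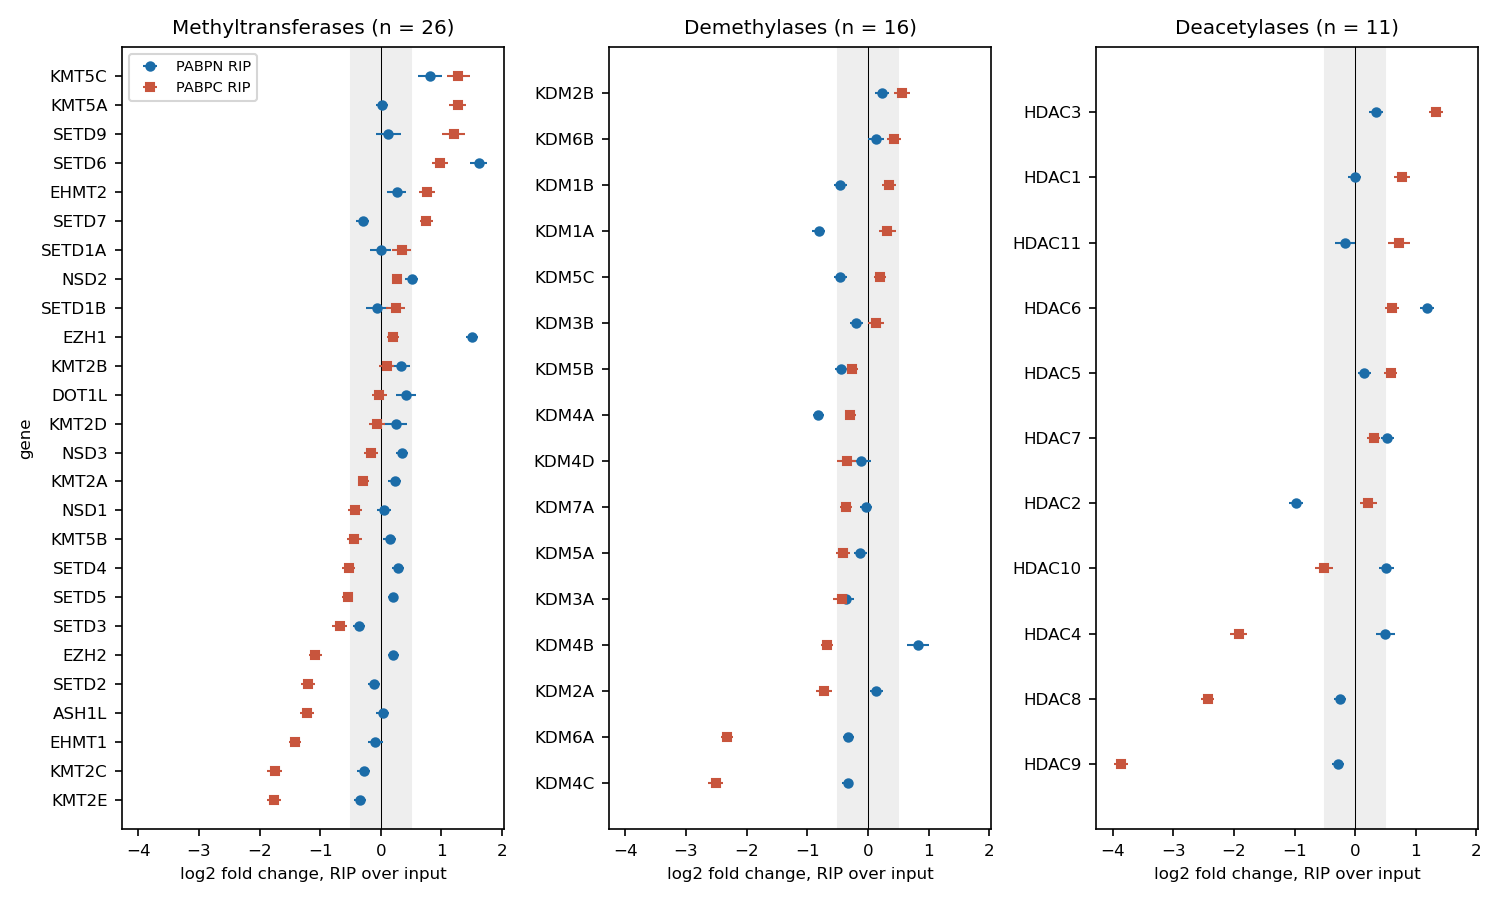
Log2 fold change over input (x axis) of each of the 53 genes in the PABPN RIP (circles) and the PABPC RIP (squares), with bars of 1 SE and the range from -0.5 to 0.5 in grey, in panels of 26 methyltransferase, 16 demethylase and 11 deacetylase genes ordered by the PABPC value. The PABPC values reach down to -3.86 for HDAC9, while no PABPN value lies below -0.97.

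The tail to which both proteins bind follows a poly(A) signal near the annotated 3′ end. The last 30 bases of the MANE Select transcript (GENCODE release 44, hg38) are shown for EZH1 and EZH2 and for the genes with the highest and lowest fold change in each RIP, so that the annotated ends of the leading genes can be compared. Capitals mark the first match to AATAAA, read on the transcript's strand.
EZH1 (chr17:42700275-42700304, minus strand): tgtgacctcttAATAAAgtgttagaatcca
EZH2 (chr7:148807383-148807412, minus strand): aactttgAATAAAgaatacttgaacttgtc
SETD6 (chr16:58523813-58523842, plus strand, highest with PABPN): cttgcttAATAAAagacagctggattctca
HDAC2 (chr6:113933028-113933057, minus strand, lowest with PABPN): gacaaagctcaAATAAAggaaaaagaccca
HDAC3 (chr5:141620881-141620910, minus strand, highest with PABPC): atccAATAAActaagtcggtattttttgta
HDAC9 (chr7:19002387-19002416, plus strand, lowest with PABPC): tatgtgAATAAAaagctatttgaaataaaa
All 6 transcripts held AATAAA in this window. Among the 53 genes, 31 held AATAAA (58.5%), 12 held only the variant ATTAAA (22.6%) and 10 held neither (18.9%). Over the 19061 protein coding genes with such a transcript these shares were 58.1%, 13.4% and 28.5%. Those genes were taken whether or not they had reads here, while the 53 had passed the read minimum, so the shares are not matched. The match is a description of the annotated end, and which ends were used in these cells was not measured.

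Among the enzymes of H3K27, the EZH1 and EZH2 genes encode the alternative catalytic subunits of Polycomb repressive complex 2 (PRC2), which trimethylates this lysine. EZH1 (ENSG00000108799, chr17:42700275-42745049) had a normalised mean read count of 1943 in input, 5491 in PABPN RIP and 2228 in PABPC RIP. EZH2 (ENSG00000106462, chr7:148807257-148884321) had 8504, 9799 and 4025. EZH1 was therefore high in the PABPN RIP alone, and EZH2 was low in the PABPC RIP alone. The log2 fold change of EZH1 was 1.50 ± 0.10 (SE) with PABPN (adjusted p 1.09e-46 from DESeq2) and 0.20 ± 0.10 with PABPC. That of EZH2 was 0.20 ± 0.091 with PABPN and -1.08 ± 0.10 with PABPC (adjusted p 3.17e-25 from DESeq2). Both genes were higher with PABPN than with PABPC, by 1.30 ± 0.15 and 1.28 ± 0.14. EZH1 exceeded EZH2 by 1.29 ± 0.14 in the PABPN RIP and by 1.28 ± 0.15 in the PABPC RIP. The order of the paralogs was thus the same in both RIPs.

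The H3K4 methyltransferases KMT2A to KMT2D and SETD1A and SETD1B are the catalytic subunits of COMPASS-type complexes, which mark promoters and enhancers. None of the 6 was called with PABPN, where their fold changes ran from -0.29 to 0.33. With PABPC only KMT2C was called, with a mean count of 18427 in input, 15117 in PABPN RIP and 5469 in PABPC RIP and a log2 fold change of -1.75 ± 0.12. Its partner at enhancers, KMT2D, had 13462, 16002 and 12881 and a change of -0.064 ± 0.14 with PABPC and 0.25 ± 0.19 with PABPN, against -0.29 ± 0.11 for KMT2C with PABPN. KMT2C minus KMT2D was -1.69 ± 0.18 in the PABPC RIP. KMT2A, rearranged in leukaemia, had mean counts of 16421, 19224 and 13437 in input, PABPN RIP and PABPC RIP, with changes of 0.23 ± 0.11 and -0.29 ± 0.094. Its paralog KMT2B had 3166, 3991 and 3384, with changes of 0.33 ± 0.15 and 0.10 ± 0.13. SETD1A had 5135, 5116 and 6521, with changes of -0.0053 ± 0.17 and 0.34 ± 0.16. SETD1B had 2741, 2619 and 3249, with changes of -0.066 ± 0.18 and 0.24 ± 0.15. These 4 genes stayed within the cut-off in both RIPs. The direct difference called KMT2A (0.52 ± 0.14) and KMT2C (1.47 ± 0.16) higher with PABPN. KMT2E, a relative of these genes for which no strong methyltransferase activity is known, had 5612, 4414 and 1650.2 and was depleted with PABPC at -1.77 ± 0.11.

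Methylation of H3K36 marks transcribed gene bodies, and SETD2 is the enzyme that trimethylates it. SETD2 had a mean count of 11415 in input, 10540.3 in PABPN RIP and 4979 in PABPC RIP, which left it near input with PABPN (-0.11 ± 0.10) and depleted with PABPC (-1.20 ± 0.12). ASH1L, a Trithorax-group enzyme, was alike, with 14991, 15297 and 6436 and changes of 0.029 ± 0.10 and -1.22 ± 0.12. The NSD genes encode enzymes that dimethylate H3K36. NSD2 had 15957, 22664 and 19223, and its PABPN value of 0.51 ± 0.10 lay just inside the cut-off, with 0.27 ± 0.085 for PABPC. NSD1 had 14829, 15402 and 11086, with 0.055 ± 0.11 and -0.42 ± 0.12. NSD3 had 8415, 10695 and 7527, with 0.35 ± 0.10 and -0.16 ± 0.12. Neither NSD1 nor NSD3 was called in a RIP, but the direct difference called NSD3 higher with PABPN, at 0.51 ± 0.15, beside ASH1L and SETD2.

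EHMT1 and EHMT2 encode the subunits of a dimer that methylates H3K9 in euchromatin. Their transcripts lay on opposite sides of input in the PABPC RIP. EHMT1 had a mean count of 23671 in input, 22264 in PABPN RIP and 8852 in PABPC RIP, with changes of -0.088 ± 0.12 and -1.42 ± 0.10. EHMT2 had 2303, 2756 and 3905, with 0.26 ± 0.16 and 0.76 ± 0.12. The PABPC values of the pair differed by -2.18 ± 0.16, and their PABPN values by -0.35 ± 0.20, which was not called. DOT1L, the H3K79 methyltransferase and the member here without a SET domain, lay just outside the PABPN cut-off at 0.42 ± 0.16 (adjusted p 0.0298 from DESeq2).

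The H4K20 enzymes act in sequence, KMT5A placing the first methyl group and KMT5B and KMT5C the next ones. KMT5A had a mean count of 2538 in input, 2564 in PABPN RIP and 6107 in PABPC RIP. It was the gene that lay furthest toward PABPC, with changes of 0.015 ± 0.10 and 1.27 ± 0.14 and a difference of -1.25 ± 0.17. KMT5C had 515, 905 and 1247 and was enriched with both proteins, at 0.81 ± 0.20 and 1.28 ± 0.19. KMT5B had 2836, 3133 and 2090.0 and was called with neither, at 0.14 ± 0.10 and -0.44 ± 0.12. KMT5B minus KMT5C was -0.67 ± 0.22 in the PABPN RIP, not called after Holm adjustment, and -1.72 ± 0.23 in the PABPC RIP. KMT5A has the processed pseudogenes KMT5AP1 and KMT5AP2, whose baseMean was at most 11.3, so reads of KMT5A that map equally well to them are uncertain.

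Of the remaining SETD genes, all 6 were called with PABPC, 3 in each direction. Such calls were common with PABPC, where enrichment took in 41.2% of protein coding genes and depletion 27.9%. No test was made of this count. SETD6, whose product methylates the NF-kB subunit RELA, had the highest PABPN value of all 53 genes. Its mean count was 1949 in input, 5955 in PABPN RIP and 3830.1 in PABPC RIP, with changes of 1.61 ± 0.13 and 0.97 ± 0.13. SETD9 had few reads, 183, 199 and 422, and was enriched with PABPC at 1.20 ± 0.19, against 0.12 ± 0.20 with PABPN. SETD7, a monomethylase of H3K4 and of many other proteins, was also enriched with PABPC (0.75 ± 0.11) and not with PABPN (-0.30 ± 0.10). SETD3, which methylates a histidine of actin, SETD4 and SETD5 were depleted with PABPC at -0.68 to -0.53. SETD4 lay close to the cut-off at -0.53 ± 0.11.

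Among the 16 demethylase genes, 2 were depleted with PABPN (12.5%), beside 16.5% of protein coding genes. KDM1A (LSD1) and KDM1B (LSD2) are amine oxidases that act on H3K4, KDM1A within the CoREST complex. KDM1A had a mean count of 9707 in input, 5513 in PABPN RIP and 12123 in PABPC RIP, with changes of -0.82 ± 0.11 and 0.32 ± 0.14. KDM1B had 2498, 1819.8 and 3174, with -0.46 ± 0.10 and 0.35 ± 0.11, so that its PABPN value lay just outside the cut-off. Both were higher with PABPC than with PABPN, with direct differences (PABPN minus PABPC) of -1.14 ± 0.18 and -0.80 ± 0.15. In neither RIP did the pair differ by the cut-off used, and the 95% interval of KDM1A minus KDM1B was -0.66 to -0.061 with PABPN and -0.37 to 0.32 with PABPC.

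KDM4A, KDM4B and KDM4C share a JmjC domain that removes trimethylation from H3K9 and H3K36, and each of the genes was called in its own pattern. KDM4A had a mean count of 6604 in input, 3746 in PABPN RIP and 5374 in PABPC RIP. KDM4B had 5692, 10069 and 3562. KDM4C had 5848, 4633 and 1024. KDM4A was thus low in the PABPN RIP (-0.82 ± 0.092 against -0.30 ± 0.091 with PABPC). KDM4B was high with PABPN and low with PABPC (0.82 ± 0.18 and -0.68 ± 0.10), and KDM4C was low in the PABPC RIP (-0.34 ± 0.089 and -2.51 ± 0.12). KDM4A against KDM4B was the one pair of the 24 that differed in the PABPN RIP alone, by -1.64 ± 0.20. KDM4A and KDM4C differed by 2.22 ± 0.15 with PABPC, and KDM4B and KDM4C differed in both RIPs, by 1.16 ± 0.20 and 1.84 ± 0.15. KDM4D, of which far fewer reads were counted (304 in input), was called in neither.

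The H3K27 demethylases gave the widest gap of the 24 paralog pairs tested. Genes not paired in that list could lie further apart with PABPC, as did HDAC5 (0.59) and HDAC9 (-3.86). KDM6A (UTX), an X-linked subunit of the KMT2C and KMT2D complexes, had a mean count of 19793 in input, 15817 in PABPN RIP and 3950.1 in PABPC RIP. KDM6B (JMJD3), known for its induction in inflammation and development, had 1009, 1105 and 1361. KDM6A was low in the PABPC RIP, and KDM6B was called in neither RIP. The changes of KDM6A were -0.32 ± 0.091 with PABPN and -2.32 ± 0.10 with PABPC, and those of KDM6B were 0.13 ± 0.13 and 0.43 ± 0.11. With PABPC the pair differed by -2.76 ± 0.15 (adjusted p 8.10e-72 in the two-sided normal test over 48 pair comparisons).

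KDM2A and KDM2B, CXXC-domain proteins that bind unmethylated CpG islands and demethylate H3K36, were called in opposite directions with PABPC, although KDM2B was no longer called once values were centred on the median of all genes (0.42) or of protein coding genes (0.31). KDM2A had a mean count of 7927 in input, 8724 in PABPN RIP and 4801 in PABPC RIP, with changes of 0.14 ± 0.11 and -0.72 ± 0.13. KDM2B had 3656, 4306 and 5409, with 0.24 ± 0.12 and 0.56 ± 0.13. The pair differed by -1.29 ± 0.18 with PABPC and by -0.10 ± 0.16 with PABPN, the latter not called. The H3K9 demethylases KDM3A, KDM3B and KDM7A were called in neither RIP. KDM3A had 2874, 2230.5 and 2129, with -0.37 ± 0.14 and -0.43 ± 0.14, and KDM3B had 7024, 6153 and 7689, with -0.19 ± 0.11 and 0.13 ± 0.13. These differed by -0.56 ± 0.19 with PABPC, a call that Holm adjustment ended (adjusted p 0.0764 in the two-sided normal test). The H3K4 demethylases were likewise called in neither RIP. KDM5A had 8784, 8037 and 6606, with -0.13 ± 0.11 and -0.41 ± 0.12. KDM5B had 5419.9, 3975 and 4521, with -0.45 ± 0.091 and -0.26 ± 0.10. KDM5C had 12767, 9321 and 14589, with -0.45 ± 0.10 and 0.19 ± 0.10, and its direct difference of -0.65 ± 0.14 placed it higher with PABPC.

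Of the class I deacetylases, HDAC1, HDAC2 and HDAC3 are catalytic subunits of the SIN3, NuRD, CoREST or NCoR complexes. These 3 of the 4 class I genes were higher with PABPC than with PABPN. The comparison called 37.8% of protein coding genes in that direction. HDAC1 had a mean count of 6291 in input, 6254 in PABPN RIP and 10762 in PABPC RIP. HDAC2, its close paralog in the same complexes, had 10479, 5338 and 12144. HDAC1 was therefore high with PABPC (0.77 ± 0.13) and near input with PABPN (-0.0085 ± 0.11), and HDAC2 was low with PABPN (-0.97 ± 0.12, adjusted p 8.81e-15 from DESeq2) with 0.21 ± 0.14 for PABPC. HDAC1 exceeded HDAC2 by 0.96 ± 0.16 in the PABPN RIP and by 0.56 ± 0.19 in the PABPC RIP, the latter not called after Holm adjustment. HDAC3, the deacetylase of the NCoR complexes, had 2262, 2866 and 5719.8 and the highest PABPC value of the 53 genes, 1.34 ± 0.12, against 0.34 ± 0.12 with PABPN. HDAC8, a class I enzyme that deacetylates the cohesin subunit SMC3, went the other way. It had 11801, 9935 and 2182, with -0.25 ± 0.10 and -2.43 ± 0.11.

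The class IIa enzymes shuttle between nucleus and cytoplasm and bind MEF2 transcription factors. HDAC9 (ENSG00000048052, chr7:18086949-19002416) had a mean count of 8465 in input, 6930.4 in PABPN RIP and 581 in PABPC RIP. HDAC4 had 3576, 5057 and 943. HDAC5 had 2965, 3296 and 4446. HDAC9 and HDAC4 were thus far below input in the PABPC RIP alone, and HDAC5 was above it. HDAC9 was the lowest gene with PABPC at -3.86 ± 0.12 (adjusted p 4.94e-244 from DESeq2), with -0.29 ± 0.10 for PABPN. HDAC4 changed by 0.50 ± 0.16 and -1.92 ± 0.13, its PABPN value lying at the cut-off, and HDAC5 by 0.15 ± 0.11 and 0.59 ± 0.11. HDAC7 had 1198, 1729 and 1479 and was enriched with PABPN at 0.53 ± 0.10, against 0.30 ± 0.11 with PABPC. HDAC4 lay below HDAC5 with PABPC (a difference of -2.51 ± 0.17) and above HDAC9 in both RIPs, by 0.79 ± 0.19 and 1.94 ± 0.18. In the direct difference HDAC9 stood furthest toward PABPN at 3.58 ± 0.15, followed by HDAC4 at 2.42 ± 0.21.

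HDAC6 and HDAC10 form class IIb, HDAC6 being the cytoplasmic deacetylase of tubulin and HDAC10 a polyamine deacetylase. Both were enriched with PABPN. HDAC6 had a mean count of 1754 in input, 3975 in PABPN RIP and 2676 in PABPC RIP, with changes of 1.18 ± 0.12 and 0.61 ± 0.12. HDAC10 had 615, 880.1 and 431, with 0.52 ± 0.13 and -0.51 ± 0.15, both just inside the cut-offs. HDAC6 exceeded HDAC10 by 0.66 ± 0.18 and 1.12 ± 0.19. HDAC11, the class IV enzyme, was enriched with PABPC at 0.72 ± 0.18, against -0.17 ± 0.16 with PABPN.

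**Figure D2:**
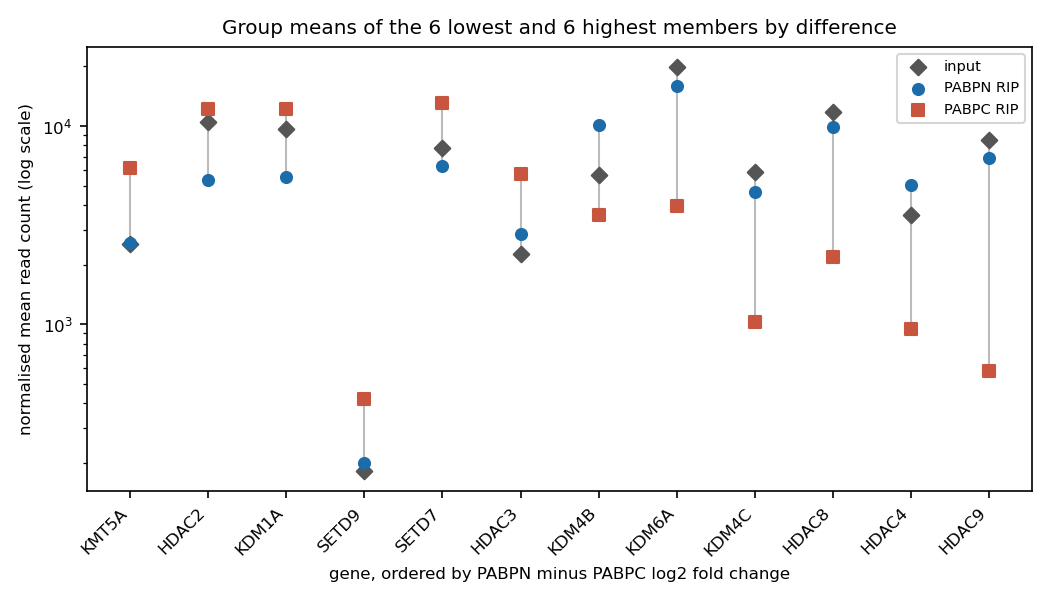
Normalised mean read count (y axis, log scale) in input (diamonds), PABPN RIP (circles) and PABPC RIP (squares) of the 6 genes furthest toward PABPC and the 6 furthest toward PABPN by the difference of their log2 fold changes, with grey lines joining the lowest and highest group. HDAC9 drops from 8465 in input to 581 in the PABPC RIP, while KMT5A is nearly equal in input and PABPN RIP and reaches 6107 with PABPC.

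Across the 24 paralog pairs, 7 differed in the PABPN RIP and 15 in the PABPC RIP, of which 6 differed in both (a difference beyond 0.5 with an adjusted p of at most 0.01 over 48 comparisons, by the same kind of normal test). Over protein coding genes, too, fold changes spread more widely with PABPC (SD 1.28) than with PABPN (SD 0.64). No count was made for pairs of unrelated genes. Several genes, such as NSD1 and KDM4A, recur across the pairs, which are therefore not separate cases. The 8 pairs called in neither were KMT2A and KMT2B, SETD1A and SETD1B, NSD1 and NSD3, NSD2 and NSD3, KDM1A and KDM1B, KDM5A and KDM5B, KDM5B and KDM5C, and HDAC5 and HDAC7. For SETD1A minus SETD1B the 95% interval was -0.43 to 0.55 with PABPN and -0.33 to 0.53 with PABPC. For KMT2A minus KMT2B it was -0.47 to 0.26 and -0.70 to -0.074. A missed call does not show that such a pair behaved alike. The SE of a gene's fold change covers the spread between replicates, and gene length does not cancel between paralogs.

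**Figure D3:**
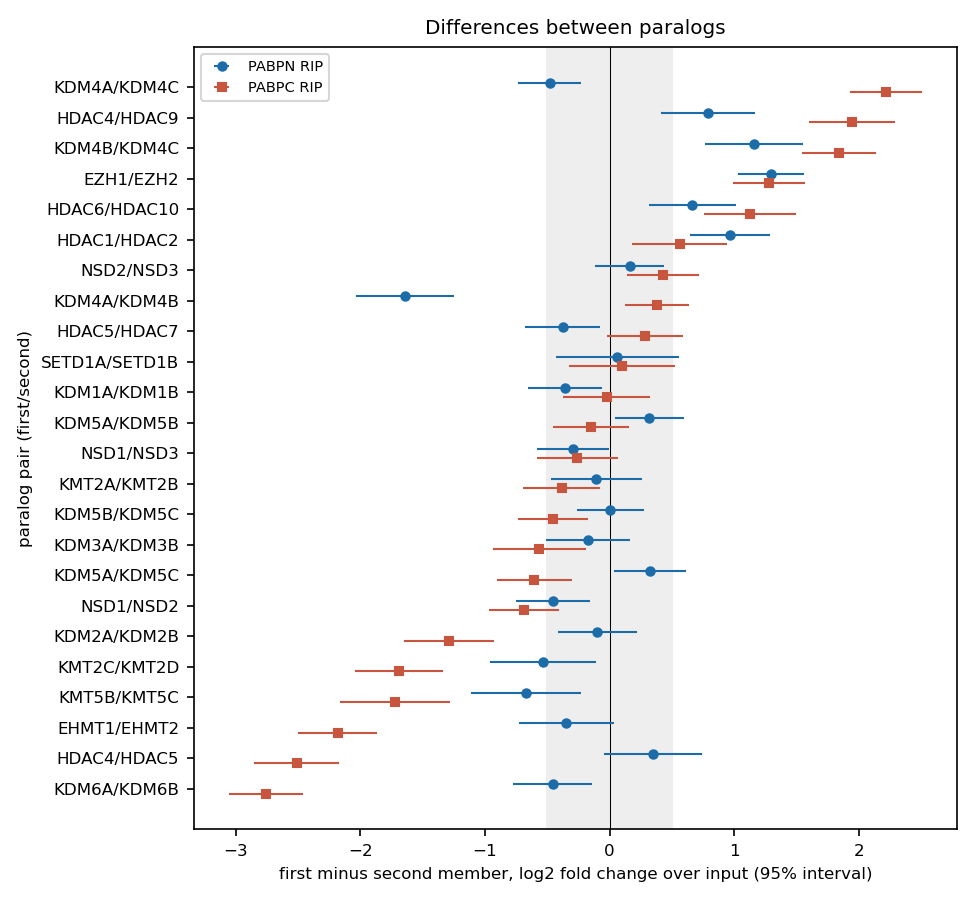
Difference of log2 fold changes over input between the first and the second gene of 24 paralog pairs (x axis) in the PABPN RIP (circles) and the PABPC RIP (squares), with 95% intervals and the range from -0.5 to 0.5 in grey. The PABPC differences run from -2.76 for KDM6A and KDM6B to 2.22 for KDM4A and KDM4C, and the EZH1 and EZH2 difference is 1.29 with PABPN and 1.28 with PABPC.

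The genes differ greatly in span, from 6.22 kb for HDAC10 to 915 kb for HDAC9, and the authors counted reads in introns together with reads in exons. Fold changes in the PABPC RIP moved with the span, as they did over 12450 protein coding genes (Spearman's rho -0.769, against -0.739 over the 53 genes). Among protein coding genes of any span, 41.2% were enriched and 27.9% depleted with PABPC. Shares by span were not counted outside the 53 genes, so the counts below are not read as a trait of these enzymes. Among the 18 shortest genes (up to 44.8 kb) 9 were enriched and 2 depleted with PABPC, with a median log2 fold change of 0.52. Among the 18 of middle span 1 was enriched (HDAC5) and 3 were depleted (EZH2, SETD3 and SETD5), with a median of -0.28. Among the 17 longest (from 111 kb) 2 were enriched and 12 depleted, with a median of -1.22. The 2 long genes enriched with PABPC were SETD7 (111 kb) and KDM2B (152 kb), and the 2 short genes depleted were HDAC10 and SETD4. With PABPN the medians of the same groups were 0.25, -0.16 and -0.088, and the 17 longest genes had 3 enriched (NSD2, KDM4B and HDAC4) and none depleted. In the direct difference, 13 of the 17 longest genes were higher with PABPN and 1, SETD7, was higher with PABPC. Protein coding genes of any span gave 30.6% and 37.8%.

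As a description over genes, which share their libraries, Spearman's rho between span and PABPC fold change was -0.739 over the 53 genes and -0.769 over 12450 protein coding genes. For the PABPN fold change it was -0.335 and -0.135. Coding length gave -0.321 with PABPC over the 53 genes and -0.532 over 12374 protein coding genes, and -0.040 with PABPN. The part of span or of intronic reads in any single difference was not tested.

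**Figure D4:**
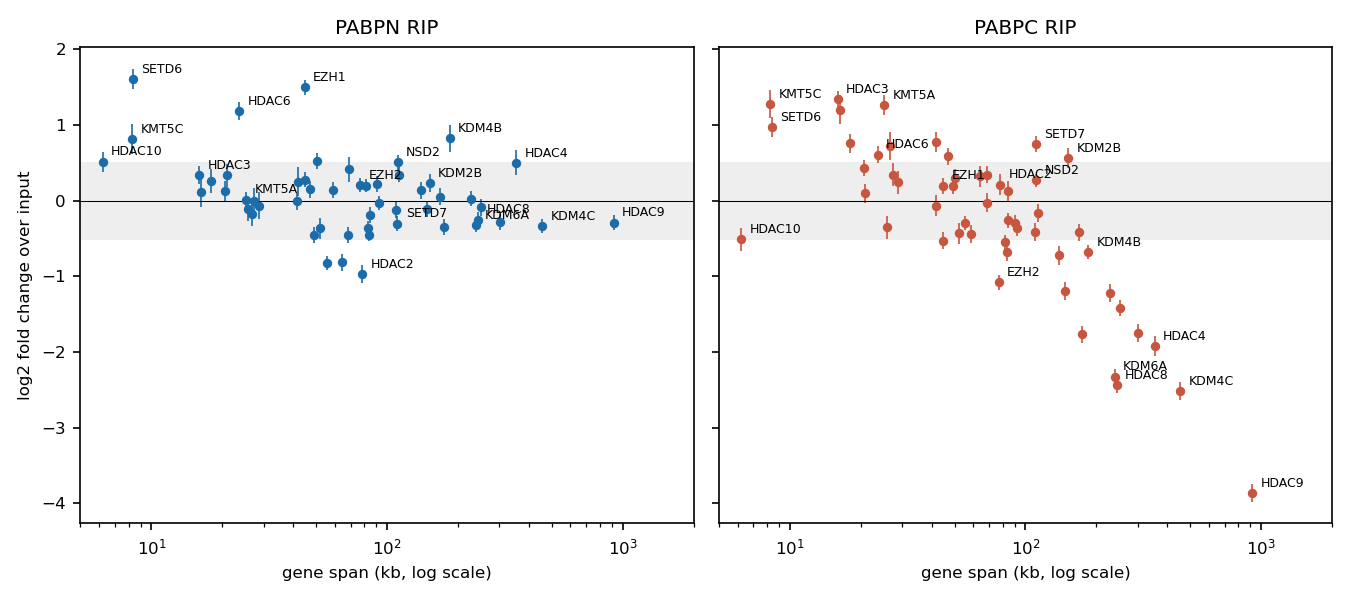
Log2 fold change over input (y axis, with bars of 1 SE) against gene span in kb (x axis, log scale) for the 53 genes in the PABPN RIP (left) and the PABPC RIP (right), with the range from -0.5 to 0.5 in grey. The PABPC values decline with span (rho -0.739), with SETD7 and KDM2B above the other long genes, while the PABPN values show a shallower decline (rho -0.335).

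Subunits that work with these enzymes were followed in lists made by known function. The background over protein coding genes was 41.2% enrichment and 27.9% depletion with PABPC, and 15.1% and 16.5% with PABPN, and the counts of these short lists are read against those shares with no test. Of 11 COMPASS partners, 6 were enriched (54.5%) and 2 depleted (18.2%) with PABPC, and 1 was depleted with PABPN (9.09%), with medians of 0.98 and -0.29. PAGR1, a subunit of the KMT2C and KMT2D complexes, had the highest PABPC value (2.15 ± 0.16), and NCOA6 the lowest (-1.06 ± 0.12). With PABPN the scaffold WDR5 was highest (0.48 ± 0.14, not called) and WDR82, which recruits the SETD1 enzymes, was depleted (-0.58 ± 0.16). Of 10 PRC2 partners, 5 were enriched (50%) and 2 depleted (20%) with PABPC and 1 was enriched with PABPN (10%), all near the background. EPOP had the highest PABPC value (2.26 ± 0.17), JARID2, which helps to recruit PRC2, the lowest (-2.02 ± 0.091), and PHF1 was enriched with PABPN at 1.35 ± 0.15. The core subunit EED was lowest with PABPN at -0.47 ± 0.11 and not called. Of 31 partners in deacetylase complexes, 13 were enriched (41.9%) and 10 depleted (32.3%) with PABPC, close to the background, and 2 were enriched (6.45%) and 5 depleted (16.1%) with PABPN. SAP18 had the lowest PABPN value (-1.13 ± 0.12) and a PABPC value of 1.67 ± 0.13. BRMS1 was highest (2.01 ± 0.22) and ARID4B lowest (-2.23 ± 0.12) with PABPC, and SIN3B was highest with PABPN (0.69 ± 0.13). In the direct difference, 7 of 11 COMPASS partners (63.6%), 4 of 10 PRC2 partners (40%) and 15 of 31 deacetylase partners (48.4%) were higher with PABPC, where protein coding genes gave 37.8%. Higher with PABPN were 2 (18.2%), 1 (10%) and 8 (25.8%) of these lists, where protein coding genes gave 30.6%.

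**Figure D5:**
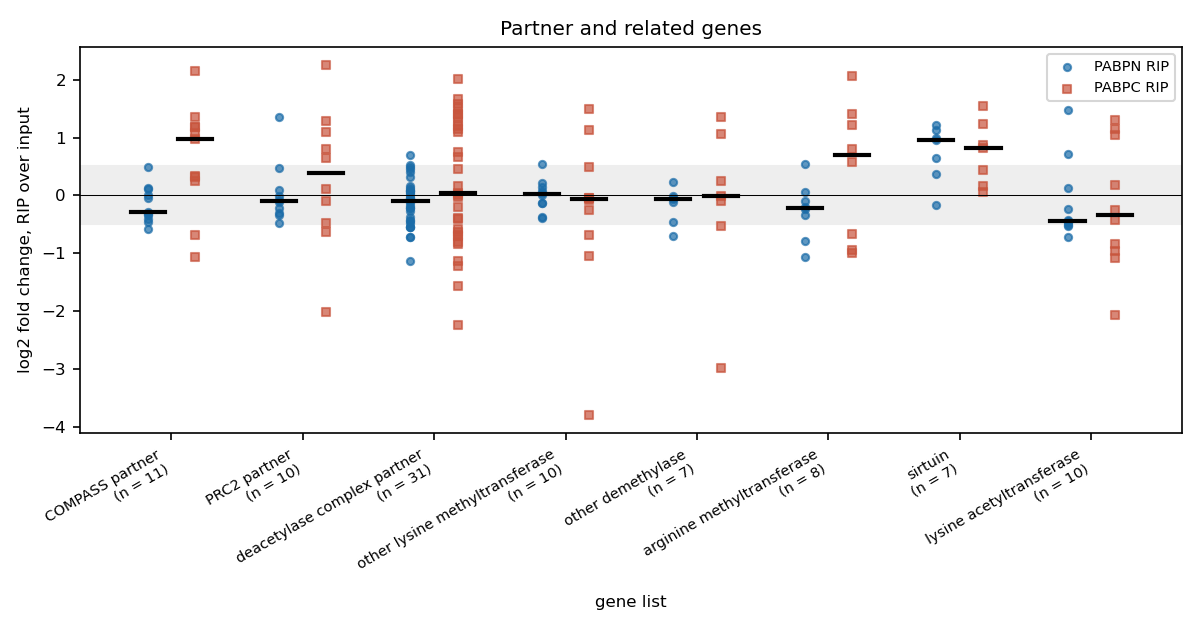
Log2 fold change over input (y axis) of 94 partner and related genes in 8 lists (x axis) in the PABPN RIP (circles) and the PABPC RIP (squares), with black bars at each list's median and the range from -0.5 to 0.5 in grey. COMPASS partners have medians of -0.29 with PABPN and 0.98 with PABPC. The medians of the sirtuins lie above input in both RIPs, at 0.95 and 0.82, although SIRT1 lies at -0.17 with PABPN.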

How the data were processed

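RNA from crosslinked HEK293T lysates was sequenced as ribosomal RNA-depleted, single-end 75 nt libraries (3 input, 3 PABPN RIP and 3 PABPC RIP), grouped by the sample titles. The authors aligned reads to hg38 with STAR and counted them over exons and introns with featureCounts 2.0.2 (minimum overlap 20), in an annotation derived from GENCODE release 34 with NCBI genes added, stretches shared by overlapping genes removed, and genes reached by upstream transcription filtered out. The kit kept strand, but the strand setting of the counting was not given in the sources used here. Each RIP was compared with input by the authors in DESeq2, whose design formula was likewise not given, and 1 table per RIP was deposited, each resting on 6 libraries.

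The signal deposited by the authors (baseMean) is the mean of read counts divided by size factors. Deposited on the log2 scale are the fold change and its SE. The score deposited is the Wald statistic, and the p-value columns deposited give its two-sided p, raw and after Benjamini-Hochberg adjustment. These comparison columns were used because they are the measurement in the files. Rows repeated in a table (123 in each) were counted once.

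Group means were computed from baseMean and fold change. The PABPC table was rescaled by 0.23 on the log2 scale so that both tables share 1 set of input means. Depth per library was estimated from the baseMean of genes with 1 read. Differences between RIPs or between paralogs were tested with two-sided normal tests, with the error taken as the square root of the summed squares of both SEs. The test between RIPs and a Wald test beyond the cut-off were run on simulated fold changes, and the test between paralogs was not. The simulated errors were normal and drawn from the deposited SEs. Whether those SEs fit the data was therefore not checked. The input shared by both tables makes the error of the difference between RIPs too wide rather than too narrow. Gene spans, coding lengths and transcript ends came from GENCODE release 44, in which all 56 genes were found. Python 3.11.15, pandas 2.3.3, numpy 2.4.6, scipy 1.17.1 and matplotlib 3.10.9 were used. Alternatives were other cut-offs, a Wald test beyond the cut-off, other read minimums, centring, removal of the shared input variance, Holm adjustment and another length.

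The genes and lists were chosen with earlier results of these data known. Named were the 4 highest and 4 lowest genes of each comparison, both genes of each paralog pair, genes in counts of 5 or fewer, and the highest and lowest partner gene per list. KMT2E, SETD2, ASH1L, DOT1L, KDM4D, KDM7A, SETD7, HDAC11 and the pseudogenes were added to these to complete their families.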

Additional observations from a re-analysis of the deposited data

Results flagged for a closer look

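For 33 genes the fold changes in the 2 RIPs differed by the direct test (adjusted p of at most 0.01, difference beyond 0.5). The differences, PABPN minus PABPC on the log2 scale, that placed deacetylase genes toward PABPN were 3.58 for HDAC9, 2.42 for HDAC4, 2.19 for HDAC8, 1.03 for HDAC10 and 0.57 for HDAC6. Demethylase genes toward PABPN were KDM4C at 2.18, KDM6A at 2.001, KDM4B at 1.50 and KDM2A at 0.86. Methyltransferase genes of H3K4 and their relative were KMT2C at 1.47, KMT2E at 1.42 and KMT2A at 0.52. Those of H3K36 were ASH1L at 1.25, SETD2 at 1.08 and NSD3 at 0.51. Others were EHMT1 at 1.33, EZH1 at 1.30, EZH2 at 1.28 and KMT5B at 0.58. Of the other SETD genes, SETD4 lay at 0.81, SETD5 at 0.74 and SETD6 at 0.64.

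Toward PABPC lay the deacetylase genes HDAC2 at -1.19, HDAC3 at -0.997, HDAC11 at -0.90 and HDAC1 at -0.78. The demethylase genes were KDM1A at -1.14, KDM1B at -0.80, KDM5C at -0.65 and KDM4A at -0.52. The methyltransferase genes were KMT5A at -1.25, SETD9 at -1.08 and SETD7 at -1.05. The 5 genes KDM1B, KDM5C, NSD3, KMT2A and KMT5B were called in the difference without a call in either RIP. KMT2A and NSD3 lay close to the cut-off, and centring on the median of all genes took both below it, at 0.45 and 0.44. KDM4A lay as close, and centring on the median of protein coding genes took it to -0.41.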

How the results depend on the processing

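No paired analysis was possible because the tables hold no values per library, and for the same reason leaving out each replicate in turn was not run. A log2 cut-off of 1 gave 3 genes enriched and 0 depleted with PABPN, 4 enriched and 11 depleted with PABPC, 14 higher with PABPN, 5 higher with PABPC and 3 paralog pairs that differed with PABPN. Without a cut-off 12 genes were depleted with PABPN. A Wald test that the change exceeds 0.5 gave 3 enriched with PABPN, 5 enriched with PABPC and 11 depleted with PABPC. Exonic in place of coding length gave a rho of -0.422 with PABPC. The other alternatives run for these counts kept each within 1.5 times its value. They included read minimums, removal of the shared input variance, Holm adjustment and centring on the median of all genes. That centring gave 9 genes enriched and 22 depleted with PABPC. Centring on the median of protein coding genes was counted for the direct difference alone. More PABPC calls of single genes changed under it, as listed below.

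Centring on the median of all genes (-0.041 with PABPN, 0.14 with PABPC, 0.068 for the difference) turned the sign of PABPN values near 0, to 0.033 for HDAC1, 0.0081 for KDM7A and 0.036 for SETD1A, of PABPC values to -0.010 for KDM3B and -0.044 for KMT2B, and of the difference to -0.00019 for KDM3A. Centring on the median of protein coding genes gave PABPN values of 0.078 for HDAC1, 0.054 for KDM7A, 0.081 for SETD1A and 0.021 for SETD1B, and PABPC values of -0.053 for EZH1, -0.040 for HDAC2, -0.12 for KDM3B, -0.059 for KDM5C, -0.16 for KMT2B and -0.0075 for SETD1B. None of these was called. HDAC5, HDAC6 and KDM2B lost their PABPC enrichment under both centrings (0.45, 0.47 and 0.42 under the first), and HDAC11 and SETD7 under the second. KDM3A, KDM5A, KDM7A, KMT5B and NSD1 became depleted with PABPC under both, and KDM4A (-0.55), KDM4D (-0.60), KDM5B (-0.51) and KMT2A (-0.54) under the second, where DOT1L also became enriched with PABPN (0.50). In the difference, KMT2A and NSD3 lost their calls and EHMT2 and HDAC5 gained one under the first, and KDM4A lost its call and DOT1L and NSD1 gained one under the second. Holm adjustment ended the calls of KDM3A and KDM3B (adjusted p 0.0764) and of HDAC1 and HDAC2 (0.0860) with PABPC and of KMT5B and KMT5C (0.0737) with PABPN in the normal test. The cause was not tested.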

Other observations

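Enzymes outside the name rule were read from the same tables, where the background over protein coding genes was 15.1% enrichment and 16.5% depletion with PABPN, and 41.2% and 27.9% with PABPC. Sirtuins, the NAD-dependent deacetylases, were enriched with PABPN in 5 of 7 genes (71.4%) and with PABPC in 4 (57.1%), with none depleted in either. SIRT7, a nucleolar enzyme, had the highest PABPN value (1.21 ± 0.16), and SIRT1, the most studied member, the lowest (-0.17 ± 0.12). SIRT6, a chromatin-bound sirtuin, was highest with PABPC (1.54 ± 0.12), and the mitochondrial SIRT5 was lowest (0.067 ± 0.13). Among 8 arginine methyltransferases 5 were enriched (62.5%) and 3 depleted (37.5%) with PABPC. PRMT1, which makes most asymmetric dimethylarginine, was depleted with PABPN at -1.06 ± 0.17 and enriched with PABPC at 1.41 ± 0.17. PRMT2 was highest with PABPN (0.55 ± 0.11), and PRMT6 was highest (2.07 ± 0.14) and PRMT3 lowest (-0.998 ± 0.11) with PABPC.

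Of 10 lysine acetyltransferases, which oppose the HDACs, 2 were enriched (20%) and 3 depleted (30%) with PABPN, and 3 were enriched (30%) and 4 depleted (40%) with PABPC. KAT2A (GCN5) was highest in both RIPs, at 1.48 ± 0.11 and 1.30 ± 0.14. HAT1 was lowest with PABPN (-0.71 ± 0.10) and KAT6B lowest with PABPC (-2.06 ± 0.10). Among 10 other lysine methyltransferases SMYD3 had a PABPC value of -3.80 ± 0.14 and SMYD5 one of 1.49 ± 0.20, while with PABPN SMYD4 was highest (0.54 ± 0.11) and SUV39H2 lowest (-0.39 ± 0.12). Among 7 other demethylases JMJD1C was lowest with PABPC (-2.98 ± 0.11) and RIOX1 highest (1.35 ± 0.21). RIOX1 was also lowest with PABPN (-0.69 ± 0.20), where PHF2 was highest (0.23 ± 0.17). Over all 94 partner and related genes 12.8% were enriched and 12.8% depleted with PABPN, and 42.6% and 27.7% with PABPC, close to the shares of protein coding genes. No set test was made of these lists, and UTY and PRMT8 had too few reads to be called.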
